A study of Mus musculus with 9 samples.

Results

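Across tumor-infiltrating CD45+ cells, 249 of 9160 expressed genes had their 3 lowest normalized read counts in the 3 libraries from tumors given doxorubicin plus the STING agonist ADU-S100. The members were chosen on these read counts. A gene was taken when its mean over the 9 libraries was at least 10 CPM (a gene's count per 1000000 counts of its library) and its highest CPM in the combination libraries lay below its lowest CPM in the 6 other libraries. These genes made up 2.72% of the 9160, and 0.59% (54 genes) were higher in every combination library by the same measure. This balance depends on the scaling of the libraries. With the TMM scaling explained below, 50 genes were lower and 182 higher in every combination library, and with RLE 98 were lower and 137 higher. Because the rule used the combination libraries, every difference between them and the other libraries is given below as a description, without a test.

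The series profiled CD45+ cells that had been sorted magnetically from tumors. BALB/c mice carried the tumors under the skin, grown from the mouse fibrosarcoma cell line WEHI-164. The combination group received doxorubicin (5 mg/kg weekly) together with ADU-S100 (25 µg, 2 times a week), the doxorubicin group received doxorubicin alone, and the control group received vehicle. All injections were intratumoral and all tumors were collected 7 days after treatment, and each group holds 3 libraries. No group with ADU-S100 alone was sequenced, so the effect of the agonist without doxorubicin cannot be told apart from that of the pair. The study describes the libraries as biological triplicates and the labels tie none of them to an animal, so the p-values below measure the spread between these libraries.

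STING is a membrane protein of the endoplasmic reticulum that is activated by cyclic dinucleotides, and ADU-S100 is a synthetic cyclic dinucleotide. On activation STING moves to the Golgi, drives interferon and inflammatory gene expression, and is then carried through endosomes to lysosomes, where it is degraded. Macrophages, which take up dead cells and matrix, are rich in lysosomes, and lysosomal enzyme genes are controlled as a group in many cell types by the factors TFEB and TFE3, which bind E-box elements with the core CACGTG.

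Of the 249 members, 246 are protein-coding genes, 2 are transcribed pseudogenes and 1 is a long non-coding RNA. The largest role groups were endosome, lysosome and Golgi trafficking (42 members), transcription factors and chromatin (24), glycan synthesis and the secretory pathway (22), and kinase, calcium and small G protein signalling (20). Lysosomal enzymes and the proteins that mature them numbered 10, and 35 members had a role outside the named groups or none assigned. The grouping was made by hand from the known function of each gene.

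The proximal promoters of the lysosomal enzyme members that hold CACGTG are shown because the element was found in most of the windows of this group. CACGTG was present in the 250 bases before a transcription start in 5 of the 8 lysosomal enzyme members with a RefSeq promoter window (62.5%), namely Ctsd, Naglu, Sgsh, Nagpa and Ctsf. It was found in 24 of 200 members with a window (12%) and in 10.55% of the 7197 expressed genes with one. The promoters of Ctsd, Sgsh, Naglu and Ctsf follow, from RefSeq on GRCm38.p6 (mm10), 5′ to 3′ on the gene's strand and ending 1 base before the start, with CACGTG in capitals. Ctsd encodes the aspartic protease cathepsin D (chr7:142387828-142388077, minus strand, 2 copies) and Ctsf the cysteine protease cathepsin F (chr19:4854915-4855164, plus strand). Sgsh (chr11:119355511-119355760, minus strand) and Naglu (chr11:101069844-101070093, plus strand) encode enzymes that remove sugars and sulfate from heparan sulfate.
Ctsd: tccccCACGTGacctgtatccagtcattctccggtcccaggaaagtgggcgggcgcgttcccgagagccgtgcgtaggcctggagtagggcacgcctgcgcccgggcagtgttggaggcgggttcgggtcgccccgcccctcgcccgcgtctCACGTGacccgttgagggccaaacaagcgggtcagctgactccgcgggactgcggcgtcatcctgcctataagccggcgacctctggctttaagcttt
Sgsh: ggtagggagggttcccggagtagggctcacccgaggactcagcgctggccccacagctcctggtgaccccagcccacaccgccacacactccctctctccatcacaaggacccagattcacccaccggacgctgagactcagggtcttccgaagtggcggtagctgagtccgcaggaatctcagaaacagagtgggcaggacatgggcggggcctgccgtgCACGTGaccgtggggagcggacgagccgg
Naglu: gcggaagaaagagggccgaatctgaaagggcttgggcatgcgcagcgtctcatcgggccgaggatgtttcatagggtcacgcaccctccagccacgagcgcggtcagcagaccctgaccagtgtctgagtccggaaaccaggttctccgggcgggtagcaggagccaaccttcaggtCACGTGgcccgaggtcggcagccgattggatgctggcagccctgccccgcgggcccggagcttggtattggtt
Ctsf: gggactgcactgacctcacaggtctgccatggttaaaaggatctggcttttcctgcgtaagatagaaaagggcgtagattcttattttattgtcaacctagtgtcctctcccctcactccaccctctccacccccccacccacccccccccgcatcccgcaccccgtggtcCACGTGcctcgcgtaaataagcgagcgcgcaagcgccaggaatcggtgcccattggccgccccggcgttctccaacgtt

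CACGTG reads the same on either strand. The longer CLEAR element described at lysosomal genes, searched as a perfect palindrome that contains CACGTG, was in the window of 0 of the 8 lysosomal enzyme members. It was present in 2 trafficking members, Klc4 and Vps33a (1% of the members with a window), against 0.667% of all expressed genes. CACGTG itself was found in 8 of 35 trafficking members (22.9%). In a list of 53 lysosomal genes drawn up for this work, 4 of 5 members with a window held CACGTG, against 11 of 38 other genes of the list (28.9%). Other elements, searched on both strands, also differed in share between the members and all genes, in either direction. The E2F letters TTTCCCGC were in 10 members (5%) against 2.168% of all genes, the MAF letters TGCTGAC in 12 members (6%) against 3.515%, and the YY1 letters AAGATGGC in 1 member (0.5%) against 2.598%. CCAAT was in 42.5% of the members and 40.38% of all. The CACGTG share of the members as a whole is thus no further from that of all genes than those of several other elements. A match says only that the letters are in the window.

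How far the members stand apart depends on the scaling. The ratio of the highest combination CPM to the lowest other CPM ran from 0.668 (Ctsf) to just under 1, with a median of 0.958. It was below 0.8 for 7 members, below 0.9 for 47 and below 0.95 for 112. The members nearest to the limit were Synrg, with 24.26 CPM in the highest combination library and 24.27 CPM in the lowest other one, and 2510009E07Rik, with 75.45 and 75.47 CPM. Just outside it were Bap1, with 41.03 CPM in both, and Tbccd1, with 11.46 CPM in the highest combination library and 11.45 CPM in the lowest other one. When the CPM were rescaled with the trimmed mean of M-values (TMM), a method that balances library composition, 38 of the 249 members met the rule. With the median-ratio size factors of DESeq2 (RLE) 75 did, and with totals that leave out mitochondrially encoded and haemoglobin genes 174 did.

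**Figure D1:**
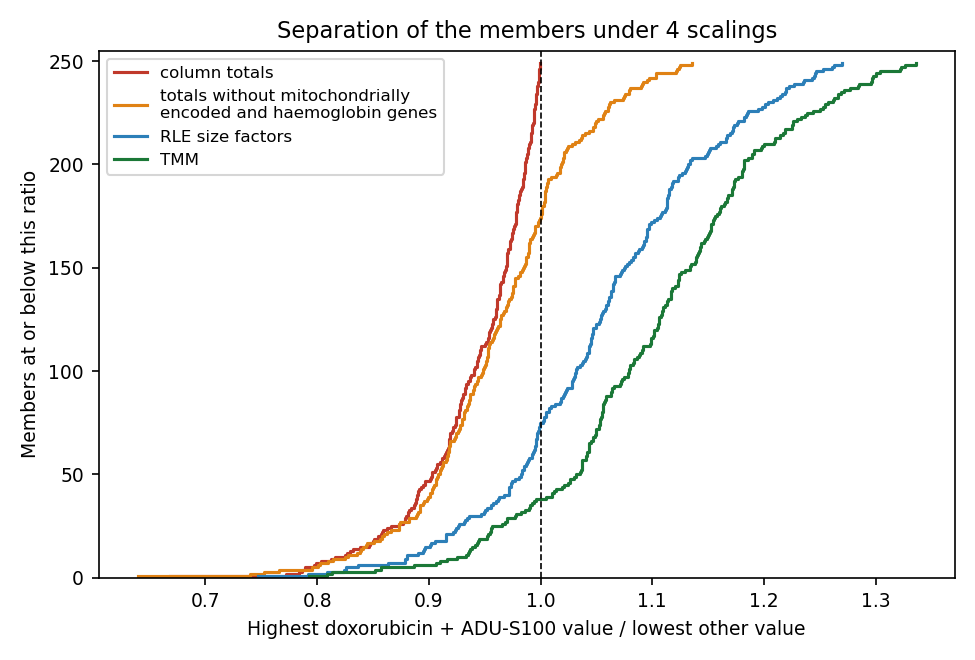
Ratio of the highest doxorubicin + ADU-S100 value to the lowest value of the 6 other libraries (x axis) against the number of the 249 members at or below it (y axis), for 4 ways of scaling the libraries. The dashed line marks a ratio of 1, where the groups touch: 249 members lie left of it with column totals, 174 without mitochondrially encoded and haemoglobin genes, 75 with RLE and 38 with TMM.

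The scalings shifted all genes by different amounts. The median of all 9160 genes in combination versus control was −0.12 on the log2 scale with column totals, against 0.06 with TMM and 0.03 with RLE. The members' median was −0.50 with column totals, −0.31 with TMM and −0.34 with RLE, which lay 0.38, 0.37 and 0.37 below that of all genes. A scaling multiplies all genes of a library by 1 factor, so these gaps change little by construction. The members were also chosen for low values, so the gaps are not read as a result that survives rescaling. Against doxorubicin alone the members' median was −0.46, −0.29 and −0.34, and that of all genes −0.08, 0.08 and 0.03. In all, 37 members were lower in every combination library under each of the 4 scalings, among them Ctsf, Sgsh, Dusp6, Fam20c, Mgat5, Mvb12b, Sema6b, Kcnk6, Camk2g, Notch1, Limk1, Cspg4 and Fam53b. The others of the 37 that the text names are Arhgap24, Cdc23, Clstn1, Colgalt1, Emilin1, Fem1a, Golm1, Hnrnpul1, Man2c1, Pip4k2b, Plbd2, Rab40c, Ssx2ip and Zfp335.

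Single libraries also shaped the set. With column totals, combination replicate 1 was the lowest of the 9 libraries for 146 members, combination replicate 3 for 77 and combination replicate 2 for 26. Control replicate 1 was the highest library for 140 members on that scale. The TMM factors of combination replicates 1, 2 and 3 were 0.815, 0.897 and 1.07. TMM divides the CPM by these factors, which raises replicates 1 and 2 and lowers replicate 3. The order of the libraries with TMM was not counted. Without combination replicate 2 the rule took 921 genes and without combination replicate 3 it took 2012. Without doxorubicin replicate 2 it took 417, and without control replicate 2 it took 383. Leaving out combination, doxorubicin or control replicate 1 gave 300, 275 and 251 genes. Leaving out doxorubicin or control replicate 3 gave 345 each. Any library left out makes the rule easier to meet by construction.

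Library totals ranged from 50110494 to 69456603 counts. Mitochondrially encoded genes held 13.1, 3.49 and 1.97% of the counts in combination replicates 1, 2 and 3, against 6.93, 1.26 and 2.05% in the doxorubicin and 2.28, 7.62 and 4.37% in the control replicates. The macrophage receptor Csf1r had 835, 1081 and 682 CPM in the combination libraries, 1659, 1217 and 1163 CPM in the doxorubicin libraries and 1598, 933 and 1325 CPM in the control libraries, so the combination overlapped the controls through control replicate 2. The pan-leukocyte gene Ptprc, which encodes CD45 itself, stood at 202 to 562 CPM in the combination, 340 to 439 CPM in the doxorubicin and 322 to 588 CPM in the control libraries. A list of 21 monocyte and macrophage genes summed to 10259 to 24009 CPM in the combination libraries, against 22329 to 25887 CPM in the doxorubicin and 20346 to 26636 CPM in the control libraries, and holds no member. Its median log2 fold change was −0.21 in combination versus control and −0.25 in combination versus doxorubicin. A mean of fibroblast genes on the log2 CPM scale was 3.32, 3.77 and 6.43 in the combination libraries, 5.29, 3.31 and 5.04 in the doxorubicin libraries and 3.34, 6.01 and 3.71 in the control libraries. The part of cell composition and of the mitochondrial share in the levels below was not tested, and in these bulk libraries fewer cells of a type and less RNA per cell cannot be told apart.

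Lysosomal enzymes included the member with the lowest ratio of all. Ctsf had 0.994, 6.77 and 6.69 CPM in the combination libraries, 19.996, 11.7 and 10.9 CPM in the doxorubicin libraries and 16.9, 10.1 and 17.6 CPM in the control libraries. All 3 combination libraries lay below the lowest other library, control replicate 2, and combination replicate 1 stood apart from its own group. The edgeR fit, which uses TMM, gave log2 fold changes of −1.51 ± 0.58 (SE) against control and −1.44 ± 0.58 against doxorubicin for Ctsf. It is separated under every scaling.

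Ctsd was the most abundant member. Its level was 1880, 2427 and 1517 CPM in the combination libraries, 4137, 4010 and 3020 CPM in the doxorubicin libraries and 2857, 3535 and 2754 CPM in the control libraries. The doxorubicin and control libraries overlapped. The log2 fold change of Ctsd was −0.75 ± 0.30 (SE) against doxorubicin and −0.44 ± 0.30 against control. With TMM the ratio of Ctsd was 1.01, so its groups overlapped on that scale.

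Sgsh stood at 21.8, 34.1 and 27.8 CPM in the combination, 66.2, 48.2 and 42.8 CPM in the doxorubicin and 56.2, 47.7 and 49.3 CPM in the control libraries. The doxorubicin libraries spanned the range of the controls, and Sgsh is separated under every scaling. Naglu, which acts in the same degradation pathway, had 44.7, 74.0 and 69.9 CPM in the combination, 132, 106 and 74.4 CPM in the doxorubicin and 89.5, 78.0 and 91.2 CPM in the control libraries. Here combination replicate 2 came within 1 CPM of doxorubicin replicate 3, a ratio of 0.995. The remaining enzymes were Man2b2, a lysosomal mannosidase (0.889), Plbd2, a phospholipase B-like protein (0.940), Hexa, the alpha subunit of beta-hexosaminidase A (0.979), and, named after their values were seen, the sulfatase Arsk (0.960), the acid ceramidase Asah1 (0.989) and Nagpa (0.999), which uncovers the mannose 6-phosphate tag on enzymes bound for the lysosome. The fitted change of Hexa against control was −0.09 ± 0.21 and changed sign with limma-voom and without combination replicate 3.

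The lysosome list gives the setting of these genes. It holds 53 tested genes, of which 6 are members with column totals (11.3%, against 2.72% of expressed genes). Of these 6, only Ctsf and Sgsh are separated under every scaling. No gene of the list, and no gene of the 16373 tested, passed an adjusted p under 0.05 in any comparison with edgeR (0%). At an unadjusted p under 0.05 edgeR took 727 genes in combination versus control (4.44%), 451 in combination versus doxorubicin (2.75%) and 116 in doxorubicin versus control (0.708%). At an adjusted p under 0.05 DESeq2 called 27 (0.167%), 9 (0.0555%) and 2 genes (0.0123%) in the same order and limma-voom 0. In combination versus doxorubicin 41 of the 53 had a negative log2 fold change, with a median of −0.23, against 41.4% negative and a median of 0.07 over all 16373 genes tested. The 47 list genes that are not members had a median of −0.22. The whole lysosome list summed to 27169 to 42835 CPM in the combination, 37377 to 49602 CPM in the doxorubicin and 37155 to 44108 CPM in the control libraries, which overlapped. In the same comparison the medians of marker lists of other cells also differed from that of all genes. T cell genes had a median of −1.08 (25 of 26 negative), neutrophil genes −0.52 (9 of 11 negative), and fibroblast and sarcoma genes 0.54 (3 of 26 negative). The T cell list summed to 13.8 to 96.4 CPM in the combination, 28.3 to 249 CPM in the doxorubicin and 21.4 to 62.1 CPM in the control libraries, and the neutrophil list to 87.7 to 362, 115 to 732 and 157 to 377 CPM in the same order. The fibroblast and sarcoma list summed to 4443 to 8095, 5693 to 9261 and 6279 to 9407 CPM, so its groups overlapped. Its mean log2 CPM was 6.43 in combination replicate 3, against 3.32 and 3.77 in combination replicates 1 and 2. These lists were not adjusted for. The part of these cell types in the lysosomal levels was not tested. In combination versus control 35 of 53 were negative with a median of −0.16, and in doxorubicin versus control 14 of 53 were negative with a median of 0.11. The combination libraries are shared by the first 2 of these comparisons and the doxorubicin libraries by the first and the last.

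**Figure D2:**
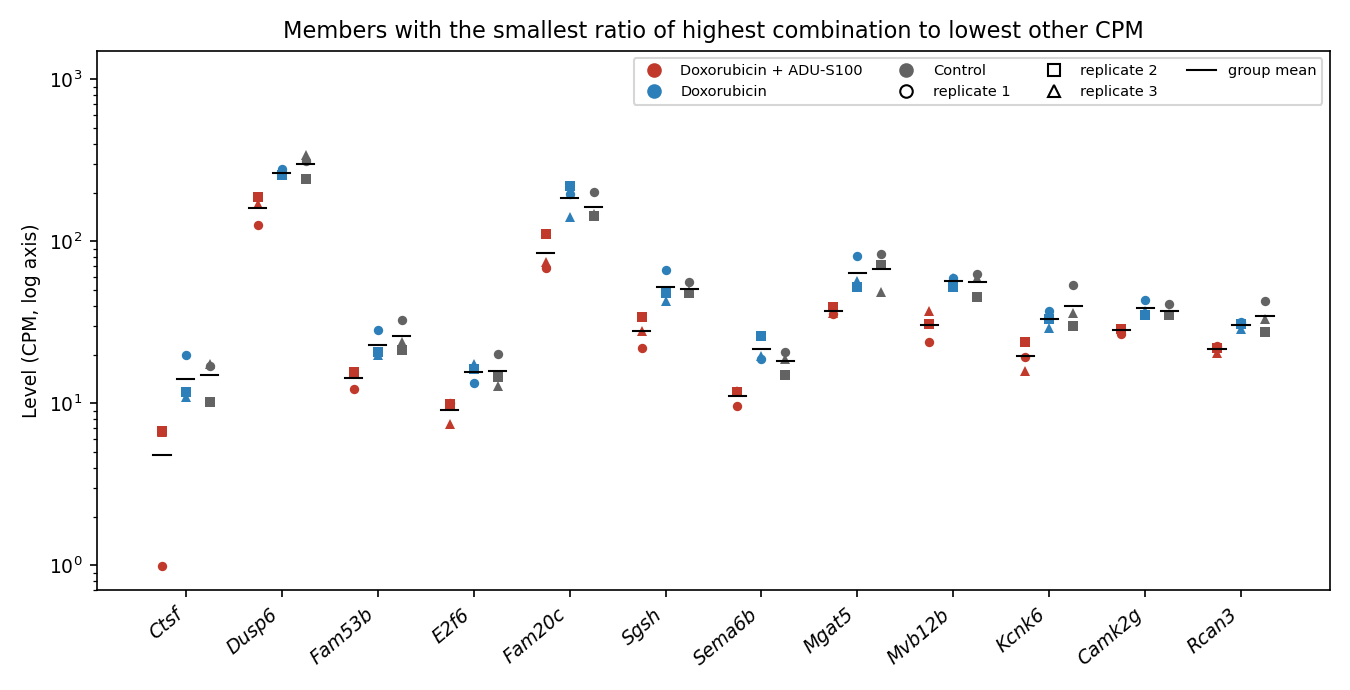
CPM on a log axis for the 12 members with the smallest ratio of highest combination to lowest other CPM, with 1 point for each library (shape gives the replicate), a bar at each group's mean, and doxorubicin + ADU-S100 left of doxorubicin and control. In each gene the 3 combination points lie below the 6 others, from Ctsf at 0.994 to 6.77 CPM to Dusp6 at 126 to 186 CPM.

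Trafficking proteins formed the largest group. Mvb12b, a subunit of the ESCRT-I complex that sorts cargo into multivesicular bodies, had 23.8, 30.8 and 36.9 CPM in the combination libraries, 59.5, 52.4 and 59.0 CPM in the doxorubicin libraries and 62.4, 45.5 and 59.3 CPM in the control libraries. The highest combination library reached 0.812 of the lowest other one, and the gene is separated under every scaling. Its log2 fold change was −0.70 ± 0.17 (SE) against control and −0.75 ± 0.17 against doxorubicin.

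Next in this group came Wdr91 (ratio 0.847), which acts with Rab7 in endosome maturation, Tbc1d22a (0.882), a protein with a Rab GTPase-activating domain, Plekhm2 (0.887), which couples lysosomes to kinesin, and Rab14 (0.887), a GTPase of the Golgi and early endosomes. Rab14 had 164, 207 and 183 CPM in the combination, 259, 242 and 233 CPM in the doxorubicin and 311, 260 and 251 CPM in the control libraries. The doxorubicin and control libraries of Rab14 overlapped.

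Several members belong to the same machines, named here after their values were seen. The AP-3 adaptor, which carries cargo to lysosomes, was represented by Ap3d1 (0.961), Ap3m2 (0.961) and Ap3b1 (0.986). The HOPS and related tethers were represented by Vps33a (0.961), Vps33b (0.933) and Tgfbrap1 (0.919), and lysosome transport on microtubules by Arl8b (0.937) beside Plekhm2 and the kinesin light chain Klc4 (0.941). Autophagy and nutrient sensing contributed Atg7 (0.943), the E1-like enzyme of autophagosome formation, Rraga (0.957), a Rag GTPase of mTORC1, and Pik3c3 (0.974), the kinase that makes phosphatidylinositol 3-phosphate. Most of this group touched the other libraries once rescaled: of the 42 trafficking members, 2 (Mvb12b and Rab40c) were separated under every scaling, against 3 of 10 lysosomal enzyme members (Ctsf, Sgsh and Plbd2).

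The matching lists leaned less. Among 44 genes of endosome and membrane trafficking, 4 are members (9.09%, against 2.72% of all expressed genes). The list's median was −0.06 in combination versus control, 0.0037 in combination versus doxorubicin and −0.07 in doxorubicin versus control. Among 34 tested autophagy and mTORC1 genes, 3 are members (9.375% of the 32 expressed). The medians were −0.02, −0.02 and 0.02 in that order of comparisons. Both shares rest on column totals. The list members Rab14, Vps33a, Ap3d1, Ap3b1, Atg7, Rraga and Pik3c3 all had ratios over 1 with TMM and with RLE. No gene of either list passed the adjusted threshold with edgeR.

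Golgi enzymes and the secretory pathway supplied 22 members. Fam20c, the Golgi kinase that phosphorylates secreted proteins, had 68.1, 111 and 74.7 CPM in the combination, 197, 219 and 141 CPM in the doxorubicin and 201, 144 and 147 CPM in the control libraries. Combination replicate 2 was the highest of its group and still lay below doxorubicin replicate 3. Its log2 fold change was −0.97 ± 0.28 (SE) against doxorubicin and −0.76 ± 0.28 against control. Mgat5, which adds the beta1,6 branch to N-glycans, had 35.5, 39.2 and 36.2 CPM in the combination, 81.3, 52.2 and 57.3 CPM in the doxorubicin and 83.0, 71.4 and 48.8 CPM in the control libraries. The combination libraries of Mgat5 were close to each other, and both genes are separated under every scaling. Other members with glycan roles were the mannosidase Man1c1 (0.877), the initiator of mucin-type O-glycans Galnt4 (0.890) and the chain-extending B3gnt7 (0.896). Golm1, Man2c1 and the collagen galactosyltransferase Colgalt1, named after their values were seen, are also separated under every scaling.

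**Figure D3:**
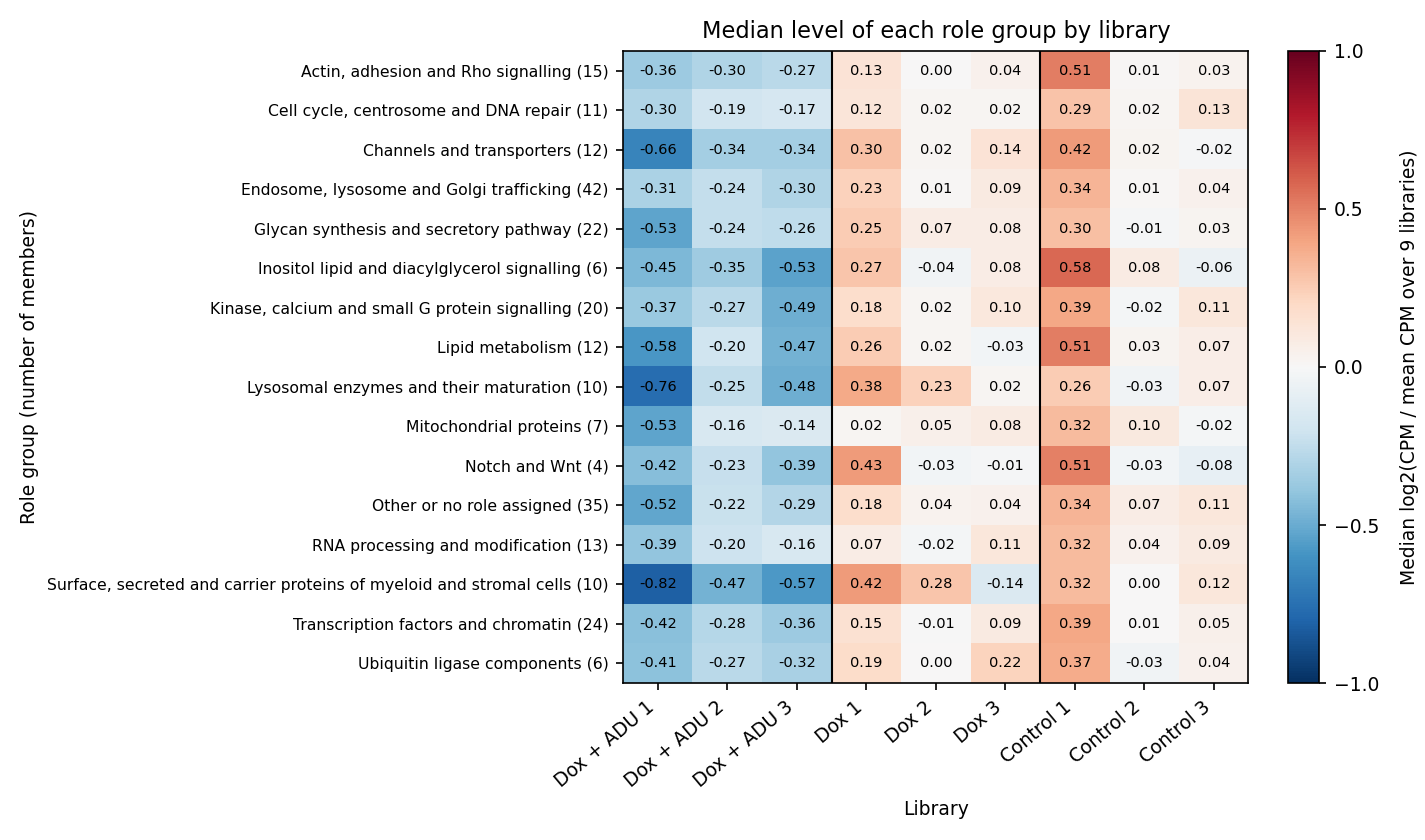
Median over the members of each role group (rows, with the number of members) of log2(CPM / mean CPM over the 9 libraries) in each library (columns, doxorubicin + ADU-S100 on the left, then doxorubicin and control). The medians are negative in all 3 combination columns for each row, as the rule fixes, deepest in combination replicate 1 for the surface and secreted proteins (−0.82) and the lysosomal enzymes (−0.76), and highest in control replicate 1 for most rows. These CPM use column totals, and the order of the libraries depends on the scaling.

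The role groups differed in depth with column totals, the scaling used for all medians in this paragraph. In combination replicates 1, 2 and 3 the lysosomal enzymes had medians of −0.76, −0.25 and −0.48 on a log2 scale relative to each gene's mean over the 9 libraries, and the surface and secreted proteins −0.82, −0.47 and −0.57. The cell cycle and DNA repair members lay nearer to 0, at −0.30, −0.19 and −0.17, and so did the RNA processing members, at −0.39, −0.20 and −0.16. Over all members the medians were −0.45, −0.25 and −0.31 in the combination libraries, 0.21, 0.02 and 0.06 in the doxorubicin libraries and 0.37, 0.02 and 0.04 in the control libraries.

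Surface and secreted proteins of myeloid and stromal cells numbered 10. F13a1, which encodes the A subunit of coagulation factor XIII and is known as a marker of tissue-resident macrophages, had 261, 260.1 and 97.0 CPM in the combination, 626, 690 and 289 CPM in the doxorubicin and 852, 593 and 445 CPM in the control libraries. Doxorubicin replicate 3 came nearest to the combination libraries. The log2 fold change of F13a1 was −1.36 ± 0.51 (SE) against control and −1.16 ± 0.51 against doxorubicin. The fit uses TMM, and on that scale combination replicates 1 and 2 (320 and 290 CPM) lay above doxorubicin replicate 3 (269 CPM). The ratio of F13a1 was 1.189 with TMM, 1.15 with RLE and 1.018 without mitochondrially encoded and haemoglobin genes. The list of tissue-resident and perivascular macrophage genes holds F13a1 and Tmem37 among 26 tested genes (9.52% of the 21 expressed, against 2.72% of all expressed genes). This share rests on column totals. The ratio of Tmem37 was 0.992 with column totals, 1.18 with TMM and 1.166 with RLE. The list's median was −0.61 in combination versus control, −0.30 in combination versus doxorubicin and −0.22 in doxorubicin versus control. None of the 26 passed the adjusted threshold with edgeR in any comparison.

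Cspg4, the proteoglycan NG2 of pericytes and some tumor cells, had 5.27, 13.1 and 14.3 CPM in the combination, 28.9, 15.6 and 16.9 CPM in the doxorubicin and 27.1, 37.3 and 42.6 CPM in the control libraries. Doxorubicin replicates 2 and 3 lay between the combination and the controls, whereas doxorubicin replicate 1 lay within the control range. Sema6b, a transmembrane semaphorin (0.799), Cd93, a receptor of myeloid and endothelial cells (0.879), Emilin1, an elastic fiber glycoprotein (0.932), and Plxnb2, a semaphorin receptor (0.944), belong to the same group. Cspg4, Sema6b and Emilin1 are separated under every scaling. Adam15, a membrane metalloprotease, had a fitted change of −0.08 ± 0.22 against control that changed sign with limma-voom, without combination replicate 3 and without control replicate 1.

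Signalling members were led by a phosphatase of the ERK pathway. Dusp6, which dephosphorylates ERK and is itself induced by ERK activity, had 126, 186 and 171 CPM in the combination libraries, 278, 258 and 259.7 CPM in the doxorubicin libraries and 314, 242 and 342 CPM in the control libraries. All 3 combination libraries lay below control replicate 2, with a ratio of 0.772, and the gene is separated under every scaling. The log2 fold change of Dusp6 was −0.72 ± 0.21 (SE) against control and −0.56 ± 0.21 against doxorubicin. Etv5, an ETS factor that is also known as an ERK target, had 56.5, 68.7 and 67.3 CPM in the combination, 101, 107 and 86.7 CPM in the doxorubicin and 127, 80.8 and 85.6 CPM in the control libraries. The doxorubicin libraries of Etv5 overlapped the controls. Its ratio was 1.01 with TMM, so its groups met on that scale. A list of 26 immediate early and dissociation stress genes had a median of 0.41 in combination versus control, with 5 negative. In combination versus doxorubicin its median was 0.44, with 7 negative. The part of ERK activity in these levels was not tested.

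Calcium signalling was represented by Camk2g (0.825), a calmodulin-dependent kinase, and Rcan3 (0.827), a regulator of calcineurin, and small G protein signalling by the Rap GTPase-activating protein Sipa1l2 (0.895). Rgs1, which shortens G protein signalling in leukocytes, had 364, 480.4 and 215 CPM in the combination, 751, 605 and 571 CPM in the doxorubicin and 694, 482 and 1002 CPM in the control libraries. Its ratio of 0.996 came from combination replicate 2 and control replicate 2, which were nearly equal. Of the 20 members of this group, Dusp6 and Camk2g are separated under every scaling.

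Inositol lipid signalling held 6 members, 1 of them separated under every scaling. Of the 6, 4 are among the 34 expressed genes of the matching list (11.8%, against 2.72% of all expressed genes). They were Inppl1 (0.924), a 5-phosphatase that acts on phosphatidylinositol 3,4,5-trisphosphate, Pi4ka (0.930), which makes phosphatidylinositol 4-phosphate, Pip4k2b (0.951), separated under every scaling, and Pik3cg (0.978), the catalytic subunit of the leukocyte PI3K gamma. The diacylglycerol kinase Dgkz (0.963) belongs to the same group. The list had a median of −0.18 in combination versus control, −0.05 in combination versus doxorubicin and −0.12 in doxorubicin versus control.

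Actin and adhesion members included Tln1, the integrin-binding protein talin 1. It had 386, 396 and 381 CPM in the combination, 595, 475 and 462 CPM in the doxorubicin and 756, 516 and 509.5 CPM in the control libraries. With column totals the combination libraries of Tln1 spanned 381 to 396 CPM and the others 462 to 756 CPM. With TMM the combination libraries stood at 474, 442 and 356 CPM and doxorubicin replicate 3 at 431 CPM. The ratio was thus 1.101 with TMM, and it was 1.065 with RLE, so Tln1 is not separated under these scalings. The group also held Limk1 (0.858), the kinase of cofilin, Arhgap24 (0.862), a GTPase-activating protein for Rac, Coro1c (0.890), Arhgef7 (0.891), an exchange factor for Rac and Cdc42, and Wasf2 (0.918), a subunit of the WAVE complex. Limk1 and Arhgap24 are separated under every scaling.

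Notch and Wnt components numbered 4. Notch1 had 28.9, 32.1 and 29.0 CPM in the combination, 56.8, 37.6 and 40.5 CPM in the doxorubicin and 62.3, 39.3 and 37.8 CPM in the control libraries. Replicate 1 was the highest library of both other groups. Rbpj (0.995), the DNA-binding partner of the Notch intracellular domain, Ncstn (0.928), a subunit of the gamma-secretase that cleaves Notch, and Lrp5 (0.919), a Wnt co-receptor, complete the group, and Notch1 is separated under every scaling.

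Lipid genes included Alox5, the 5-lipoxygenase that begins leukotriene synthesis. It had 14.8, 27.6 and 17.7 CPM in the combination, 53.8, 36.4 and 29.5 CPM in the doxorubicin and 59.0, 45.0 and 57.9 CPM in the control libraries. Doxorubicin replicates 2 and 3 lay below all controls and doxorubicin replicate 1 within them. The log2 fold change of Alox5 was −1.24 ± 0.30 (SE) against control and −0.81 ± 0.29 against doxorubicin. Its ratio was 1.12 with TMM and 1.063 with RLE, so the groups overlapped under these scalings. The group also held the lipid exporter Abca3 (0.890), the ceramide kinase Cerk (0.927) and Cpt1a (0.933), the carnitine transferase that admits long-chain fatty acids to mitochondria. Pisd-ps1 and Pisd-ps2 are near-identical pseudogene copies, so the split of reads between them and their parent gene is uncertain.

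In the group of channels and transporters, the smallest ratios were those of the potassium channel Kcnk6 (0.816), Clstn1 (0.839), Ttyh3 (0.873) and the cation channel Trpm4 (0.928). Clstn1 encodes a calsyntenin, which is neither a channel nor a transporter, and its place came from the grouping by hand. Among transcription factors and chromatin proteins the smallest ratios were those of E2f6 (0.786), a repressor of the E2F family, Kdm2b (0.857), a histone demethylase of a variant Polycomb complex, the nuclear receptor Rxra (0.893) and Zfp335 (0.906). E2f6 had 10.04, 9.93 and 7.41 CPM in the combination, 13.3, 16.2 and 17.4 CPM in the doxorubicin and 20.2, 14.6 and 12.8 CPM in the control libraries. Its groups met under at least 1 other scaling, whereas Kcnk6, Clstn1 and Zfp335 are separated under every one.

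Ubiquitin ligase components included Fem1a (0.850) and Trim8 (0.878), mitochondrial proteins the ornithine carrier Slc25a15 (0.830) and the protease Afg3l2 (0.907), RNA-binding proteins Hnrnpul1 (0.889) and Stau2 (0.907), and cell cycle proteins the anaphase-promoting complex subunit Cdc23 (0.928) and Cdk2 (0.980). Of these, Fem1a, Hnrnpul1 and Cdc23 are separated under every scaling, and no mitochondrial member is. Ercc3, a helicase of transcription and DNA repair (0.974), had a fitted change of 0.05 ± 0.17 against control and −0.01 ± 0.17 against doxorubicin.

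Of the 40 gene lists, 28 held no member, and 18 of these had 10 or more expressed genes. They were ubiquitin ligases and deubiquitinases (44 expressed genes), cytosolic ribosomal proteins (42), RNA splicing (39), mitochondrial ribosome (32), type I interferon response (30), iron, haem and glutathione (28), immediate early genes (26), TGF-beta signalling (24), glycolysis and hypoxia (24), cholesterol synthesis (23), monocyte and pan-macrophage genes (21), Fc receptors and phagocytosis (20), lipid-associated macrophages (19), fibroblast and sarcoma genes (19), mitochondrially encoded genes (15), complement (13), MHC class II presentation (10) and the STING pathway (10). With 2.72% of expressed genes being members, a count of 0 in lists of this size is not read as a difference. In combination versus control the cytosolic ribosomal proteins had a median log2 fold change of 0.47 and the type I interferon genes 1.12, against 0.06 for all genes tested.

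Doxorubicin versus control is the comparison that did not enter the rule's choice of direction, although its libraries set the upper side of every ratio. Of the 249 members, 143 had a negative and 106 a positive log2 fold change, with a median of −0.03, and 51.1% of all genes tested were negative. For 248 members the change was within 0.5 on the log2 scale. The same share was not taken over all genes tested, so this count is not read as a difference from them. The rule also required every doxorubicin and control library to lie above the combination libraries. How far this requirement by itself favors small changes between doxorubicin and control was not tested. With edgeR's quasi-likelihood test and Benjamini-Hochberg adjustment over 16373 genes, no member and no other gene passed an adjusted p under 0.05 (0% called). At an unadjusted p under 0.05 the test took 1 member, Cspg4, against 0.708% of all genes, and limma-voom took 4 members, against 5.34% of all genes. DESeq2 called 0 members at an adjusted p under 0.05 (0.0123% of all genes) and 1 at an unadjusted p (1.03% of all genes).

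Cspg4 had a log2 fold change of −0.81 ± 0.35 (SE) in doxorubicin versus control, with an unadjusted edgeR p of 0.045 and an adjusted p of 1.00. It was lower than the lowest control library in 2 of 3 doxorubicin libraries. The number of members at an unadjusted p under 0.05 was 0 when doxorubicin replicate 2 or 3 or control replicate 2 or 3 was left out, and 2 without control replicate 1. Ctsd had a log2 fold change of 0.31 ± 0.30 with an unadjusted edgeR p of 0.325, so that neither gene was distinguishable from the control spread after adjustment. Every doxorubicin library lay below every control library for 8 members (3.21%), against 2.57% of the 9160 genes, and above every control library for 2 members (0.803%), against 1.31%. The 2 were Plbd2 and Clptm1, and the 8 were Ppp1cc, Arl8b, Ctbp2, Ssx2ip, Sptssa, Cab39, Tmpo and Tpgs2, all named after their values were seen.

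**Figure D4:**
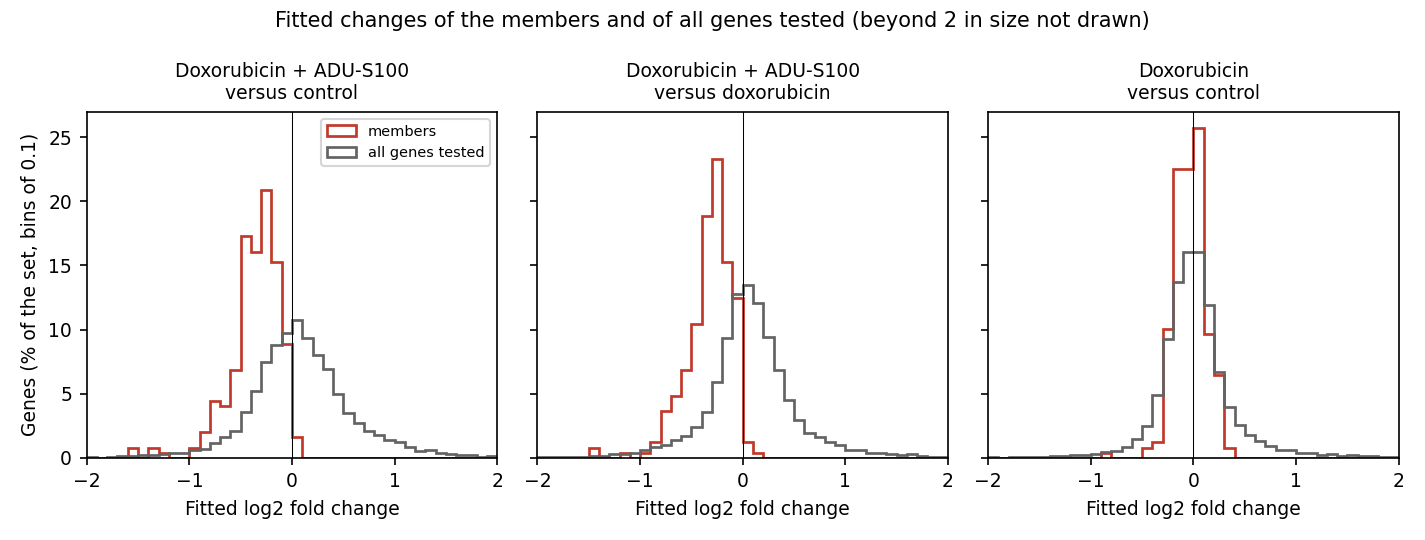
Fitted log2 fold changes (x axis) of the 249 members and of all 16373 genes tested, as a percentage of each set in bins of 0.1 (y axis), with the combination set against control on the left and against doxorubicin in the middle, and doxorubicin against control on the right. The members center on −0.31 and −0.29 in the first 2 panels, a shift the rule fixes, and on −0.03 in the third, where all genes center on −0.01; the panels share libraries.

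In the fit for the combination, 245 of 249 members were negative against control (−1.58 to 0.09, median −0.31) and 245 against doxorubicin (−1.44 to 0.11, median −0.29). The rule fixes these signs for column totals, and the 4 exceptions in each comparison show where the rescaling in the fit moved the values. Together the members held 1.43, 1.70 and 1.46% of all counts in the combination libraries, 2.49, 2.24 and 2.08% in the doxorubicin libraries and 2.58, 2.14 and 2.13% in the control libraries.

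Long transcripts were frequent among the members, a property the rule did not use. The longest annotated transcript had a median length of 4071 bases in 248 members with one, against 3384 bases in 9053 expressed genes. In 4 bins of near-equal size by transcript length, members made up 0.751% of the genes with the shortest transcripts, 2.61 and 4.29% of the middle bins and 3.31% of the genes with the longest. Over all genes the median log2 fold change in combination versus control was 0.28, 0.09, −0.02 and −0.15 from the shortest to the longest bin. In combination versus doxorubicin it was 0.20, 0.07, 0.02 and 0.01, and in doxorubicin versus control 0.08, 0.02, −0.05 and −0.15. The part of transcript length in the members' levels was not tested.

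**Figure D5:**
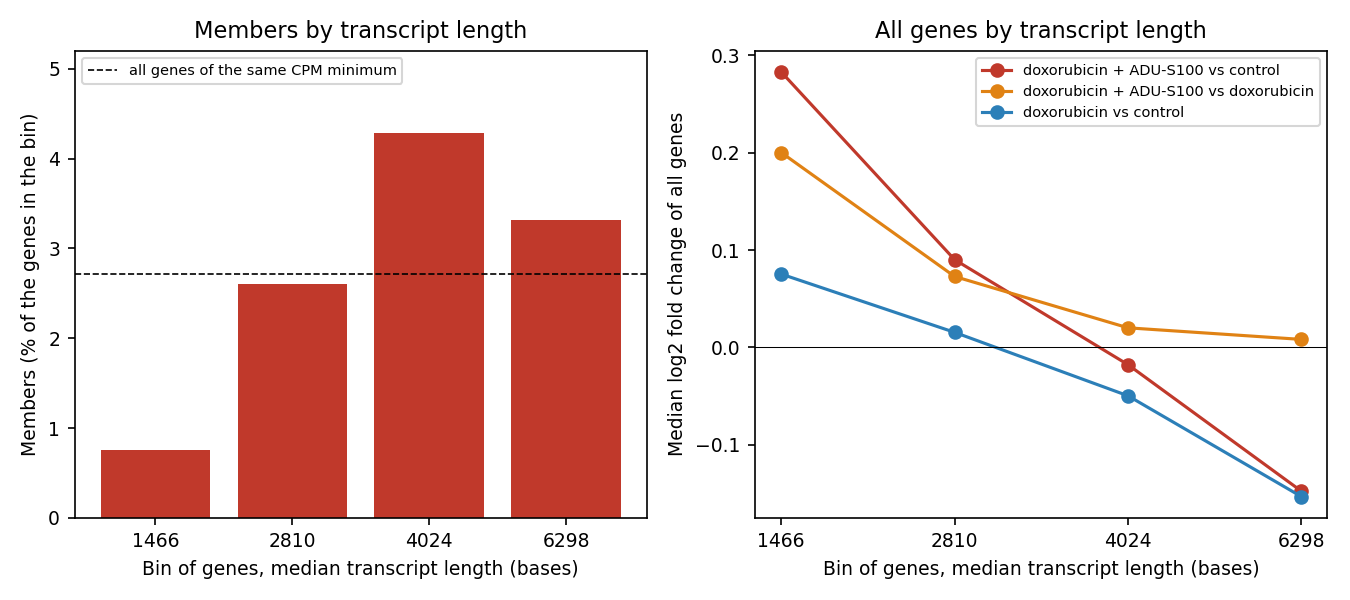
Left, members as a percentage of the genes in each of 4 bins of transcript length (x axis, median length of the bin in bases), with the share in all expressed genes, 2.72%, dashed. Right, the median log2 fold change of all genes in the same bins for the 3 comparisons; the share of members is 0.751% in the shortest bin, and the median change against control is 0.28 in the shortest and −0.15 in the longest bin for doxorubicin + ADU-S100.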

How the data were processed

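CD45+ tumor cells were profiled by stranded mRNA sequencing in 9 libraries, 3 in each group. The authors deposited whole-number read counts per RefSeq gene; the submitters' processing notes name Trimmomatic 0.38, HISAT2 2.1.0, SAMtools 1.9, StringTie 2.1.3b and the build mm10. The strand setting used in counting is not given in the sources used here, so a gene and an overlapping or antisense partner may share reads. The labels and the study's methods name different RNA isolation kits. Treatment doses and the day of collection follow the study's methods. Groups follow the treatment label of each library.

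CPM were computed from the deposited counts with column totals over all genes. Members, gene lists, role groups, motifs and tests were chosen with earlier results of these data known. The text names the 12 members with the smallest ratio, the 8 most abundant, up to 3 for each list and up to 5 for each role group by ratio, and others as stated. Counts were fitted with edgeR 4.0.16 (quasi-likelihood test, TMM, low-count filter of edgeR, all 9 libraries in 1 model, 16373 genes) in R 4.3.3, with Benjamini-Hochberg adjustment, and checked on simulated counts. DESeq2 1.42.0, limma 3.58.1 with quality weights, other scalings and CPM minimums, fits without each library and a fit with the replicate number as a block were alternatives. The smallest count of any member in a library was 66, for Ctsf. The standard error of a member's log2 fold change ran from 0.14 to 0.58 over the 3 comparisons, with medians of 0.206 to 0.207. The common biological coefficient of variation over all genes tested was 0.457, which is not the precision of the members. Promoters are from RefSeq (GRCm38.p6), where 200 members had a window and a gene counted once whichever of its windows held the letters. Transcript lengths are from GENCODE.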

Additional observations from a re-analysis of the deposited data

How the results depend on the processing

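The number of genes that met the rule changed with the scaling and with single libraries. With TMM-scaled CPM the rule took 50 genes (38 of them members), with RLE 98 (75 members), and without mitochondrially encoded and haemoglobin genes 211 (174 members), against 249. Genes higher in every combination library numbered 182, 137 and 70 in that order, against 54. Leaving out each library in turn gave 251 to 2012 genes, the most without combination replicate 3, which had a fibroblast mean of 6.43 on the log2 CPM scale. Without the library of highest fibroblast mean in each group (combination 3, doxorubicin 1, control 2), an alternative chosen after seeing the data, 2334 genes met the rule, 247 of them members, and 5 members instead of 1 passed an unadjusted p in doxorubicin versus control. The cause was not tested. Fewer libraries make the rule easier to meet by construction.

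The fitted log2 fold change of Hexa in combination versus control became 0.0011 with limma-voom and ranged from −0.20 to 0.042 (without combination replicate 3) when 1 library was left out. That of Adam15 became 0.035 with limma-voom and ranged from −0.23 to 0.082 (without combination replicate 3), with 0.051 without control replicate 1. In the fit that blocked on replicate number, 0 members passed an adjusted p in doxorubicin versus control, as without it, and 0 instead of 1 passed an unadjusted p, with the members' median at −0.03. The block changed no other call. Deviations of same-numbered libraries from their group means correlated between −0.596 and 0.383, with no common sign. With 3 libraries in each group, these values cannot decide whether the numbers pair the libraries. In all, 788 of 814 alternative values kept their direction and, within a tolerance, their size. The tolerance was wide for counts: the 364 genes taken with a mean CPM of 1 or more, against 249, counted as the same. Another 5 values changed sign, those of Hexa and Adam15 above, and the rest moved in size. The smallest count of any member in a library was 66, and what depth limits for genes outside the set was not examined.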
